A study of Mus musculus with 32 samples.

Results

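The RNA of spinal cord 7 days after photothrombosis was compared with that of spinal cord 1 day after the same injury. Every array labelled as spinal at those days was used, which is 4 arrays at day 7 and 4 at day 1, or 8 of the 32 arrays in the series. The mice were male wild-type C57BL/6J animals of 6 to 12 weeks and 20 to 25 g. In photothrombosis, light activates a dye in the blood and closes the vessels under the beam. The spinal controls (4 arrays), the spinal arrays of day 3 (4) and the cerebral arrays of day 1 and day 7 (4 each) serve below as reference, and all came from the same strain, sex and age range. Whether control mice were operated on is not stated in the labels, nor how far the sampled tissue reached beyond the lesion, nor that each array came from a separate animal. The p-values therefore measure the spread between these samples, which may in part be technical.

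Within the first days after ischaemia, damaged tissue releases cytokines and early response transcripts, and blood leucocytes enter. Microglia, the resident phagocytes of the cord, and macrophages derived from blood monocytes then take up dead cells and myelin. Myelin is rich in cholesterol, so phagocytes that have eaten it store or export sterol, and sterol is known to shut off the genes of its own synthesis. In the same period glia and vascular cells divide, fibroblasts and pericytes lay down collagen, and oligodendrocyte precursors can replace lost oligodendrocytes.

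Each value given below for an array is a log2 value minus the mean of the 4 spinal controls for that gene, in replicate order unless a range is given. Values of different genes cannot be ranked as levels, because the deposited table is centred for each probe. Day 7 was centred on its own and not with day 1, so an offset was rebuilt for each gene and added to the day 7 values. A gene was called changed when its difference passed limma's test against a bound meant to allow for the uncertainty of this offset. The threshold was a Benjamini-Hochberg adjusted p under 0.05 over all 19505 genes. Whether the bound covers the whole uncertainty was not tested. The labelled tissue was checked first. The trunk gene Hoxc8 stood above the cerebral arrays of the same day by 4.85 at day 1 and 5.65 at day 7, and Hoxb9 by 4.52 at day 1 and 3.53 at day 7, while Hoxc9 differed by 0.44 at day 1 and 0.047 at day 7. These 3 trunk genes also changed between the days compared in the cord, Hoxc8 upward by 0.80 (adjusted p = 0.0277) and Hoxb9 and Hoxc9 by -1.01 (adjusted p = 0.00193) and -0.83 (adjusted p = 0.00208). Whether the sampled stretch of cord differed between the groups was not tested. Skeletal muscle genes stood apart in the controls and not between the days compared. Myh4, a muscle myosin, was at 2.52, 2.83, -1.07 and -4.28 in the controls, at -3.89, -5.16, -4.07 and -5.08 at day 1 and at -5.11, -5.13, -5.02 and -4.69 at day 7. Control replicates 1 and 2 therefore carried far more muscle transcript than any injured array, and 0 of 12 muscle genes passed the test between day 7 and day 1. The median SD within a group over all genes was 0.167 at spinal day 1 and 0.147 at spinal day 7. One array of day 3, replicate 1, stood farthest from its group, and without it the count of changed genes was 5659. Among the 8 arrays compared, day 1 replicate 4 deviated most from its group, with an SD of deviations over all genes of 0.241. Without that array 4618 genes changed, the lowest count with 1 array left out. It stands apart from the other day 1 arrays in several genes below. The sample names of spinal day 7 begin with P and those of every other group, cerebral day 7 included, with G. What the letter stands for is not stated, and a batch behind it, if there was one, cannot be told apart from the day after injury in the cord.

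Between day 1 and day 7, 5384 of the 19505 genes changed, which is 27.6%. Of these, 2711 (13.9%) were higher at day 7 and 2673 (13.7%) were lower. The changes were larger on the upper side. Of the genes that rose, 1216 did so by more than 2-fold and 368 by more than 4-fold, against 553 and 16 of those that fell. The 4 day 7 arrays all lay above the 4 day 1 arrays in 17.9% of genes and all below in 25.4%. The median difference over all genes was -0.13, and a scaling that sets each array's median to 0 moved it to -0.023. Under that scaling 65.8% of the calls were higher and 34.2% lower, against 50.4% and 49.6% here. Leaving out 1 spinal array at a time gave 4618 to 5271 changed genes. In simulated data far fewer genes changed than were called here, and the bound was computed anew. There the test found 92.9% of genes that differ by 1 on the log2 scale. It found 41.4% of those that differ by 0.5. Among 210 list genes called below, 27 lost the call when at least 1 of the 8 arrays was left out, and 69 lost it after quantile normalisation, which also turned the sign of 8 (C4b, Cd63, Cdh5, Gfap, Msr1, S100a9, Tagln and Thbs1). In bulk tissue, more cells of a type and more RNA per cell of that type cannot be told apart, and this holds for every gene below.

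The 15 largest rises included many genes known from phagocytes, 3 mitotic genes and 1 matrix gene, and they ran from 5.07 to 8.82 on the log2 scale. Gpnmb, a membrane glycoprotein that phagocytes make under lysosomal load, was at -0.20 to 0.22 in the controls. Its day 1 arrays read 0.50, 0.22, 0.25 and 0.27, and its day 7 arrays 9.16, 9.38, 9.07 and 8.91. The 4 day 7 arrays lie close together and far from every earlier array. The difference was 8.82 ± 0.57 (SE; adjusted p = 2.05e-13), or 453-fold. Day 3, whose arrays carry a rebuilt offset of their own, lay in between at 3.15 ± 2.06 (SD, n = 4). For Gpnmb the rebuilt offset supplied 2.99 of the difference, and the deposited values alone give 5.83. The 15 rises ran from 3.64 to 6.04 in the deposited values and all 15 passed there too.

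Cd36, a scavenger receptor for oxidised lipid, read -0.082, 0.075, -0.059 and -0.64 at day 1 and 7.79, 7.79, 7.23 and 6.89 at day 7. No day 1 array stood above the highest control, and all 4 day 7 arrays stood far above it. The difference was 7.60 ± 0.28 (SE; adjusted p = 1.99e-18). Mmp12, the macrophage elastase, was already raised at day 1, at 2.75, 2.59, 2.80 and 1.32, and reached 9.60, 9.55, 9.20 and 9.16 at day 7, a difference of 7.01 ± 0.39 (SE; adjusted p = 9.46e-15). Day 1 replicate 4 was the lowest of its group. Ms4a7, a membrane protein of macrophages, lay at -0.14 to 0.063 at day 1 and 5.62 to 6.91 at day 7 and rose by 6.43. Mpeg1, which encodes the pore-forming perforin-2 of phagocytes, rose by 6.24. Lyz2, the lysozyme of myeloid cells, rose by 5.79. Cd300c2, a receptor of myeloid cells, rose by 5.55, Tmem106a by 5.19, and Cd48, a surface ligand of leucocytes, by 5.07. The arrays of the 2 days did not overlap for any of the 15, since the choice required it. The day 3 mean lay between the means of day 1 and day 7 in 15 of 15 rises and in 13 of the 15 largest falls, counts that the choice of extreme genes favours.

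**Figure D1:**
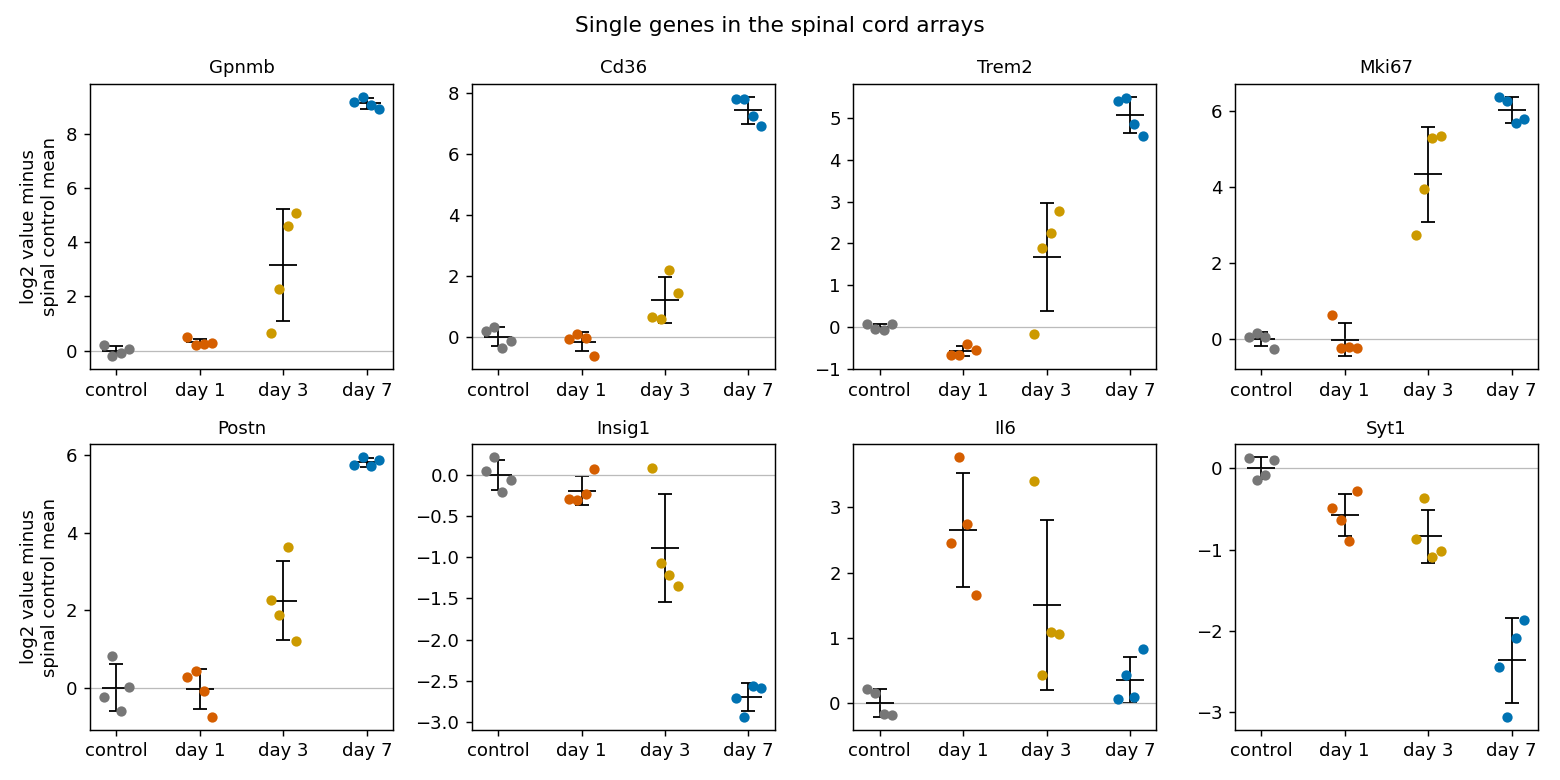
Each point is 1 array of spinal cord, as a log2 value minus the mean of the 4 controls, for 8 genes at control, day 1, day 3 and day 7, with long bars at the mean and whiskers of 1 SD (n = 4). Gpnmb, Cd36, Trem2, Mki67 and Postn are near or below control level at day 1 and high at day 7, Insig1 and Syt1 are lowest at day 7, and Il6 is highest at day 1.

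The symbol Mir675 is also among the 15, with 0.58, 0.53, -0.36 and -0.48 at day 1 and 5.33, 6.43, 6.60 and 7.002 at day 7, a difference of 6.27 ± 0.59 (SE; adjusted p = 5.94e-10). Mir675 is a microRNA gene whose precursor is cut from the H19 transcript, a long RNA of embryonic tissue and muscle that can return after injury. The files do not say which stretch of this transcript the probe reads, so the value is that of the probe and not of either mature arm. The 2 mature arms are shown to identify the gene, as RefSeq gives them on GRCm38.p6, 5′ to 3′, with the seed (bases 2 to 8) in capitals. They share no seed. The first lies at chr7:142577112-142577133 and the other at chr7:142577078-142577099, both on the minus strand.
mmu-miR-675-5p: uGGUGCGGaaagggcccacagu
mmu-miR-675-3p: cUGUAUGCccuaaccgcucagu

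The 15 largest falls were smaller, from -2.68 to -2.02, and included 3 cytokine genes, genes of sterol metabolism and genes known from neurons. Lpo, a peroxidase, read 3.39, 2.36, 2.78 and 2.83 at day 1 and 0.21, -0.070, 0.25 and 0.26 at day 7. The 4 day 1 arrays all stood high, and the day 7 arrays lay within the control range of -0.25 to 0.52. The difference was -2.68 ± 0.23 (SE; adjusted p = 2.72e-10). Il11, a cytokine of the interleukin-6 family, read 2.44, 3.42, 2.94 and 0.48 at day 1, with replicate 4 far below the others, and -0.34, -0.21, -0.16 and -0.27 at day 7. It fell by 2.57 on the log2 scale, and Il6 and Il1b, described below, by 2.31 and 2.13. Tgm1, a transglutaminase induced in injured tissue, was raised at both days, at 5.34, 5.74, 5.84 and 5.08 at day 1 and 3.72, 3.22, 3.21 and 3.07 at day 7. It fell between them by 2.19 and still stood far above the controls. Hsd11b1, which reactivates glucocorticoid inside cells, lay at -0.51 to -0.091 at day 1 and -2.98 to -2.21 at day 7. Msmo1, a sterol oxidase of cholesterol synthesis, and Insig1 fell by 2.32 and 2.51.

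The other 7 of the 15 are expressed mainly in neurons or are little described. Gabra5, a subunit of the GABA-A receptor, read -0.58, -0.55, -0.66 and -0.097 at day 1 and -2.31, -3.48, -2.25 and -2.13 at day 7. Replicate 2 was the lowest of the day 7 arrays and none reached the day 1 range. Its difference was -2.07 ± 0.21 (SE; adjusted p = 6.46e-09). Nrn1, or neuritin, fell by 2.06, but its offset range has a half-width of 0.30. After quantile normalisation Nrn1 was at -1.16 with an adjusted p of 0.0798, the only one of the 30 genes whose call was lost under an alternative. Rit2, a small GTPase of neurons, fell by 2.04, Trim9, a ubiquitin ligase of synapses, by 2.03, and Lypd6b, a modulator of nicotinic receptors, by 2.02. Elmod1 fell by 2.20 and Prkar1b, a regulatory subunit of protein kinase A, by 2.11. At day 1 Trim9 stood above the control mean in all 4 arrays, at 0.090, 0.53, 0.99 and 1.11, and Prkar1b lay on both sides of it, at -0.64, -0.42, 0.10 and 0.40.

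Most genes of resident microglia rose. Of 11 measured genes of homeostatic microglia, 8 rose and 0 fell, with a median difference of 1.71. P2ry12, the ADP receptor that guides microglial processes, was at -1.83, -2.49, -2.35 and -2.25 at day 1 and 0.15, -0.086, -0.35 and -0.010 at day 7. All 4 day 1 arrays lay far below the controls (-0.32 to 0.20) and all 4 day 7 arrays lay at control level. The difference was 2.16 ± 0.25 (SE; adjusted p = 8.33e-08). Gpr34, a lysophospholipid receptor of microglia, went from -1.22 to -0.42 to 2.13 to 3.09 and so from below control to well above it. Csf1r, the growth factor receptor that microglia and macrophages need to survive, rose by 2.52, from 0.074 to 0.29 to 2.48 to 2.93. Cx3cr1, the fractalkine receptor, rose by 1.71, Fcrls by 2.29, Olfml3 by 2.06, Siglech by 1.11 and P2ry13 by 0.79. Cx3cr1 no longer passed after quantile normalisation.

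The other 3 genes of the microglial list did not pass. Tmem119, a membrane protein that separates microglia from other macrophages, differed by -0.042 ± 0.15, with arrays of 0.33 to 0.51 at day 1 and 0.11 to 0.67 at day 7 that overlap. Sall1, the transcription factor of microglial identity, differed by 0.13 ± 0.18, and Slc2a5, a fructose carrier, by -0.087 ± 0.26. The list therefore did not move as a block.

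Genes of activated phagocytes gave the largest list median. Of 16 measured, 15 rose and 0 fell, with a median of 3.40. That median was 2.06 in the deposited values and 1.71 after quantile normalisation. Trem2, a lipid-sensing receptor of microglia and macrophages, lay below the control mean at day 1, at -0.67, -0.67, -0.41 and -0.54. That difference from control did not pass. At day 7 Trem2 reached 5.41, 5.48, 4.86 and 4.57. The difference between day 7 and day 1 was 5.65 ± 0.33 (SE; adjusted p = 2.91e-14). Its signalling partner Tyrobp went from 0.54 to 0.86 to 4.87 to 5.18 and rose by 4.33. Apoe, the lipid carrier of glia and macrophages, read -0.53, -0.48, -0.53 and -0.29 at day 1 and 2.70, 2.84, 2.71 and 2.46 at day 7. The spread within each day was small against the gap, and the difference was 3.13 ± 0.22 (SE; adjusted p = 2.95e-12).

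Lgals3, a galectin that marks damaged endosomes, was already high at day 1 (1.88 to 2.43) and went on to 6.05 to 6.97. Igf1, a growth factor for oligodendrocytes, rose by 4.35, with a wide offset range (half-width 0.72) and control arrays scattered from -1.61 to 2.60. Itgax rose by 2.01, Cst7 by 2.24, Axl, a receptor for apoptotic cells, by 1.32, Cd9 by 1.38 and Cd63 by 0.74. After quantile normalisation Igf1, Axl, Cd9 and Cd63 no longer passed. Lpl, the lipoprotein lipase, differed by 0.30 ± 0.13 and did not pass.

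Lysosomal genes rose with them. Of 17 measured, 13 rose and 0 fell, with a median of 2.10. Atp6v0d2, a proton pump subunit typical of macrophages and osteoclasts, read 0.30, 0.021, -0.076 and 0.021 at day 1 and 5.10, 5.80, 5.08 and 4.11 at day 7. It was still at 0.061 ± 0.19 (SD, n = 4) at day 3. The difference was 4.96 ± 0.23 (SE; adjusted p = 5.55e-16). Hexa, a hexosaminidase that degrades gangliosides, went from -0.67 to 0.047 to 3.37 to 3.95, and Lipa, the acid lipase that frees cholesterol from its esters, from -0.41 to 0.066 to 3.29 to 4.04. These rose by 4.04 and 3.95. Both groups are tight, and at day 1 no array of either gene stood above the highest control.

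Among the cathepsins, the proteases of the lysosome, Ctsz rose by 3.67, Ctsh by 3.62, Ctss by 2.45, Ctsk by 2.44, Ctsa by 2.17 and Ctsb by 1.57, while Ctsl differed by 0.99 ± 0.25 and did not pass. The 2 genes that move cholesterol out of the lysosome rose, Npc2 by 2.10 and Npc1 by 1.08. Grn, Psap and the membrane protein gene Lamp1 rose by 2.38, 1.22 and 0.72. Lamp1 and Npc1 no longer passed after quantile normalisation. Gaa, Lamp2 and the pump subunit Atp6v1b2 differed by -0.12, 0.51 and -0.24 and did not pass.

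Genes for lipid uptake, storage and efflux rose in 10 of 11 measured and fell in 0, with a median of 1.72. After quantile normalisation the median was 0.87. Plin2, which coats lipid droplets, read 1.46, 1.86, 1.497 and 0.55 at day 1 and 6.53, 6.51, 6.22 and 6.05 at day 7. It was above control in all 8 injured arrays and highest at day 7, with a difference of 4.99 ± 0.27 (SE; adjusted p = 7.92e-15). Abca1, the exporter that loads cholesterol onto apolipoproteins, read 0.77, 0.84, 0.33 and 0.059 at day 1 and 5.42, 5.45, 4.90 and 4.76 at day 7, a difference of 4.63 ± 0.23 (SE; adjusted p = 1.73e-15). The other exporter, Abcg1, rose by 1.03, and Nr1h3, the sterol-sensing nuclear receptor that induces both, by 0.96. The fatty acid binding protein gene Fabp5 rose by 1.72 and Fabp4 by 4.20, the latter with control arrays from -2.14 to 2.12. The scavenger receptor genes Msr1 and Olr1 rose by 1.37 and 1.32, and the acid phosphatase gene Acp5 by 3.15. Pparg, the nuclear receptor of lipid storage, differed by 0.032 ± 0.18 and did not pass. Fabp4, Msr1, Olr1 and Nr1h3 no longer passed after quantile normalisation.

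**Figure D2:**
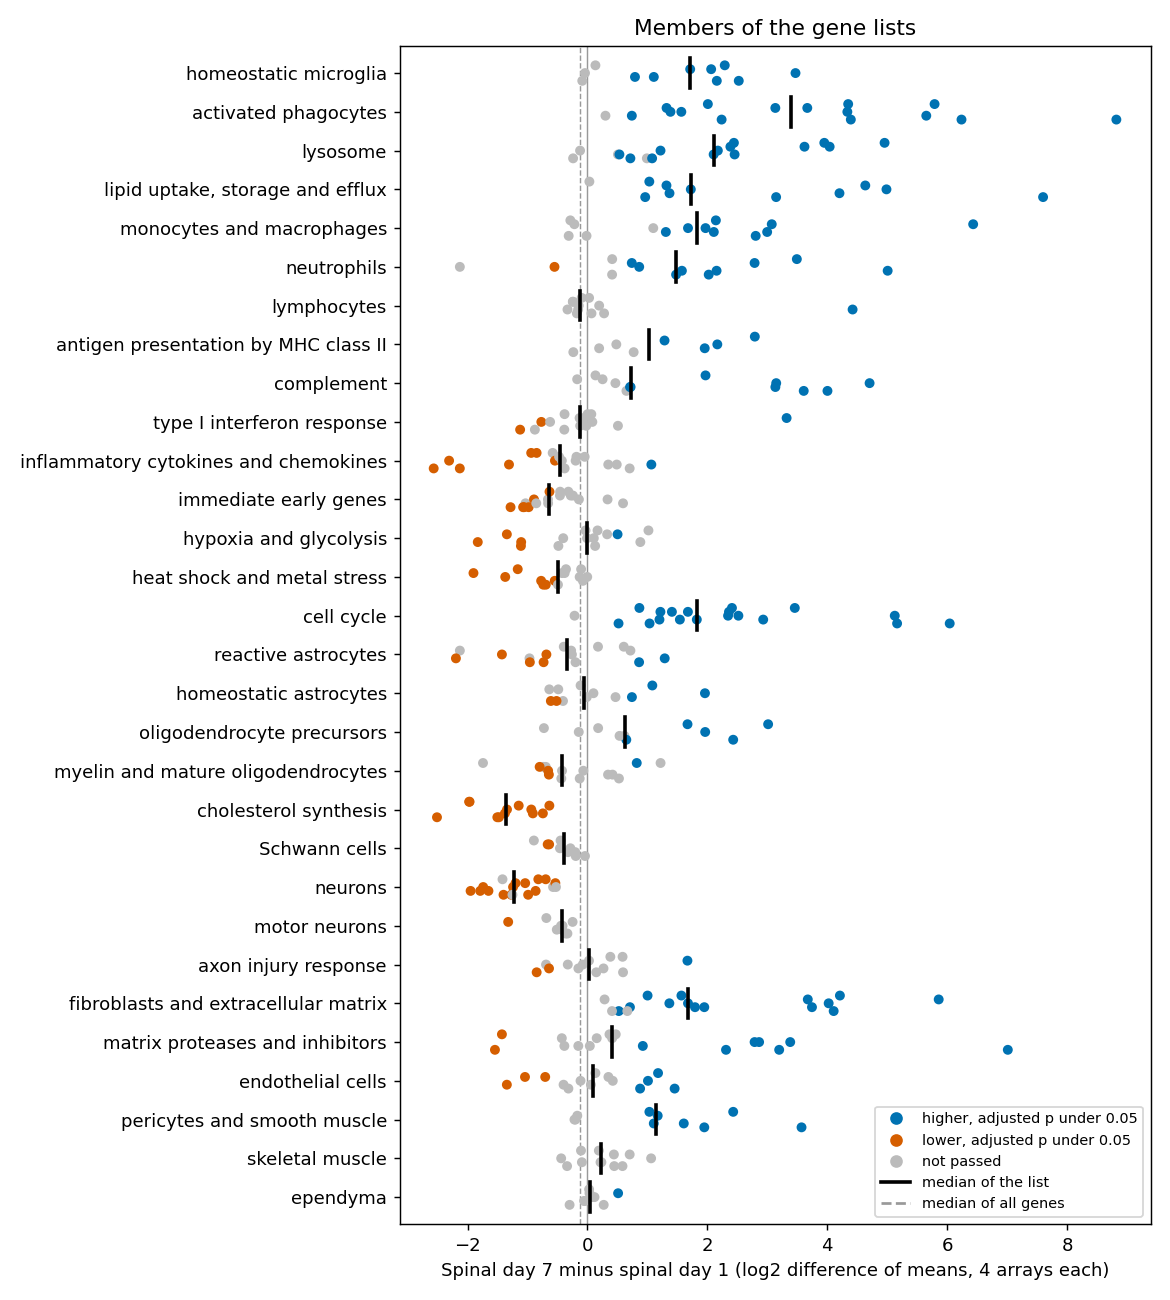
Each point is 1 measured gene of a list, at its difference between spinal day 7 and spinal day 1 (log2 difference of means, 4 arrays each), blue where it was called higher, orange where lower and grey where it did not pass; thick bars are list medians and the dashed line is the median of all genes, -0.13. Activated phagocytes (median 3.40) and lysosome (2.10) lie right, cholesterol synthesis (-1.36) and neurons (-1.22) lie left.

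Genes of monocytes and macrophages rose in 9 of 14 measured and fell in 0, with a median of 1.82, or 0.64 after quantile normalisation. Arg1, an arginase of repair-type macrophages, was high at day 1, at 3.65, 3.98, 3.26 and 1.87, and higher at day 7, at 6.28, 6.15, 5.68 and 6.94. The difference was 3.07 ± 0.44 (SE; adjusted p = 2.29e-06), and day 3 was already at 6.01 ± 1.53 (SD, n = 4). Adgre1, which encodes the F4/80 antigen, rose by 2.997, Plac8 by 2.81, the mannose receptor gene Mrc1 by 2.14, F13a1 by 2.11, the integrin gene Itgam by 1.97 and the chemokine receptor gene Ccr2 by 1.31. Ly6c2, a marker of newly arrived monocytes, differed by -0.31 ± 0.20, and Cd14, Cd163 and Lyve1 by -0.22, -0.016 and -0.29. None of these 4 passed, nor did Chil3 at 1.10 ± 0.54. Arg1, Mrc1, Itgam and Fn1 no longer passed after quantile normalisation.

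Neutrophil genes were higher at day 7 than at day 1. Of 13 measured, 9 rose and 1, the chemokine receptor gene Cxcr2, fell by 0.55. The median was 1.48, and 0.29 after quantile normalisation. Ngp, a granule protein made in immature neutrophils, read -1.05, -0.61, -0.38 and -1.004 at day 1 and 5.04, 4.58, 2.76 and 4.59 at day 7. All day 1 arrays lay below the control mean, day 7 replicate 3 was the lowest of its group, and the difference was 5.01 ± 0.35 (SE; adjusted p = 1.14e-12). Camp, the cathelicidin of the same granules, behaved alike, with -0.73, -0.45, -0.25 and -0.78 at day 1 and 3.84, 3.62, 1.48 and 2.83 at day 7. It rose by 3.49. Mmp8, Csf3r, Ltf, Mpo and Elane rose by 2.79, 2.15, 1.48, 0.86 and 0.74.

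S100a8, an alarmin of neutrophils and monocytes, read 1.71, 3.63, 2.81 and 0.80 at day 1 and 5.04, 4.75, 2.92 and 4.33 at day 7. The arrays of the 2 days overlap, and replicates 1 and 4 of day 1 lie below replicates 2 and 3. It rose by 2.02 (adjusted p = 0.00191) and its partner S100a9 by 1.57 (adjusted p = 0.00398). Lcn2, which reactive astrocytes make as well, read 4.59, 5.97, 6.23 and 4.56 at day 1 and 3.59, 3.26, 1.86 and 4.13 at day 7 and did not pass (adjusted p = 0.193), since its offset range has a half-width of 0.87. After quantile normalisation S100a8, S100a9, Mpo and Elane no longer passed. The median over the list's 13 genes ran from 0.21 to 0.99 in the day 1 arrays and from 1.48 to 2.94 in the day 7 arrays. Most listed neutrophil genes, though not Cxcr2 or Lcn2, thus rose over the same interval as most macrophage genes. The part of neutrophils in the rises of macrophage genes was not tested.

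Of 12 measured lymphocyte genes, 1 passed, a share of 8.33% against 27.6% of all genes. That gene was Il7r, the interleukin-7 receptor, which lymphoid and some myeloid cells carry. It read -0.66, -0.34, -0.24 and -0.23 at day 1 and 4.75, 4.54, 3.54 and 3.37 at day 7, a difference of 4.42 ± 0.25 (SE; adjusted p = 1.34e-14). Its neighbours in the list did not follow it. The T cell receptor chain genes Cd3e, Cd3d and Cd3g differed by -0.33, 0.28 and 0.19, Cd8a by -0.097, and the B cell genes Cd79a and Ms4a1 by -0.15 and -0.16.

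Genes of antigen presentation by MHC class II rose in 4 of 8 measured and fell in 0. H2-DMb1 and H2-DMa, which load peptide onto class II molecules, rose by 2.79 and 1.29. The class II chain genes H2-Eb1 and H2-Ab1 rose by 2.17 and 1.96. H2-Aa differed by 0.77 ± 0.18, with day 7 arrays of 0.91 to 1.34 above day 1 arrays of 0.031 to 0.63, and did not pass the bound (adjusted p = 0.0995). Ciita, the activator of these genes, differed by -0.24 ± 0.11 and did not pass. H2-Ab1 and H2-Eb1 no longer passed after quantile normalisation.

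Of 13 measured complement genes, 8 rose and 0 fell. The 3 chains of C1q, the recognition molecule that microglia and macrophages make, rose together. C1qc read 0.58, 0.33, 0.54 and 0.57 at day 1 and 5.61, 5.47, 4.90 and 4.86 at day 7, a difference of 4.71 ± 0.28 (SE; adjusted p = 5.58e-14). C1qa went from 0.94 to 1.29 to 4.57 to 4.84 and rose by 3.61, and C1qb rose by 3.13. Of the receptors, C3ar1 rose by 4.003 from an already raised 1.85 to 2.004, and C5ar1 by 0.71. Cfp, or properdin, rose by 3.15 and C4b by 0.72. C4b lost the call when any of 6 arrays was left out, and it and C5ar1 lost it after quantile normalisation. The proteases C1ra, C1s1 and C2, factor B (Cfb) and the inhibitor Serping1 differed by 0.25, 0.13, 0.65, 0.47 and -0.17 and did not pass.

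The type I interferon list gave few calls, 1 higher and 2 lower of 15 measured, a share of 20.0% against 27.6% of all genes. Bst2, or tetherin, which holds budding viruses on the cell surface, read 1.73, 0.91, 0.72 and 0.65 at day 1 and 4.62, 4.55, 4.29 and 3.83 at day 7 and rose by 3.32 (adjusted p = 6.56e-10). Stat2, a transcription factor of the interferon pathway, moved the other way. It stood at 1.17, 1.29, 1.42 and 1.22 at day 1 and 0.21, 0.21, 0.11 and 0.067 at day 7, with no overlap, and fell by 1.12 (adjusted p = 0.0172). Ifit3, an antiviral RNA-binding protein gene, fell by 0.77, from 0.68 to 1.61 to 0.12 to 0.41, and lost the call when day 1 replicate 1 or day 7 replicate 2, 3 or 4 was left out. With the offsets at their upper end neither Stat2 nor Ifit3 passed. Irf7, Mx1, Oas2 and Rsad2 differed by 0.0021, 0.064, 0.081 and -0.12 and did not pass.

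The promoters of Bst2, Stat2 and Ifit3 all hold the interferon-stimulated response element, so the shared motif is shown beside their opposite directions. Promoter windows come from the RefSeq table on GRCm38.p6 and run from 250 bases before to 50 after a gene's start. It was searched on both strands as a pair of TTTC with any 2 bases between them. A match was found for 8 of 11 genes of the interferon list and for 3.94% of the 15691 measured genes that have a window. A gene was counted when any of its windows held a match. The stretches lie at chr8:71537572-71537617 (minus strand), chr19:34583358-34583431 (plus) and chr10:128270261-128270300 (plus), are written 5′ to 3′ along the gene, and carry each match in capitals. Bst2 holds overlapping matches in reverse orientation. These genes and those printed below were picked after the matches were seen, and a match is a description of letters only.
Bst2: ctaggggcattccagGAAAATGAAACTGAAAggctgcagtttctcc
Ifit3: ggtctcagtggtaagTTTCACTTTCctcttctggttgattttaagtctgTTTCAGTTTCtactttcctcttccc
Stat2: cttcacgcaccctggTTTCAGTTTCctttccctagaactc

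Of 18 measured genes of inflammatory cytokines and chemokines, 7 fell, 1 rose and 10 did not pass, with a median of -0.45. The share called was 44.4%, against 27.6% of all genes. Il6, an acute cytokine, read 2.46, 3.77, 2.75 and 1.65 at day 1 and 0.057, 0.43, 0.092 and 0.82 at day 7, a difference of -2.31 ± 0.38 (SE; adjusted p = 3.36e-05). Day 1 replicate 4 was the lowest of its group and still lay above all day 7 arrays. Il1b, the inflammasome cytokine, read 2.58, 4.52, 2.03 and 2.24 and 0.66, 0.97, 0.79 and 0.43, with day 1 replicate 2 the highest, and fell by 2.13 (adjusted p = 0.00201). Its relative Il1a was the 1 member that rose. It stood at 0.42, 0.74, 0.84 and 0.72 at day 1 and 1.85, 2.20, 1.59 and 1.34 at day 7, a difference of 1.07 ± 0.14 (SE; adjusted p = 4.47e-06), which did not pass after quantile normalisation.

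Of the other members, the neutrophil attractant gene Cxcl2 fell by 1.31, Lif, a cytokine that acts on astrocytes, by 0.94, Ccl12 by 0.85 and Ccl5 by 0.54. Ccl5 lost the call without day 1 replicate 3 or day 7 replicate 3. The monocyte attractant gene Ccl2 was raised at both days, at 1.36 to 2.40 at day 1 and 1.10 to 1.64 at day 7, and its difference of -0.58 ± 0.27 did not pass. Ccl3 was likewise raised at both days (2.18 to 4.10 and 3.55 to 4.95) and did not pass. Tnf differed by -0.047 ± 0.13, Csf1 by 0.35 ± 0.14 and Osm by -0.47 ± 0.14, none of which passed.

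Immediate early genes, which cells switch on within minutes of stress or firing, fell in 6 of 18 measured and rose in 0, with a median of -0.65. The share called was 33.3%, against 27.6% of all genes, and 13.7% of all genes were lower. Fos read 1.87, 1.85, 2.38 and 1.97 at day 1 and 0.43, 0.83, 0.87 and 0.81 at day 7, so every day 7 array lay below every day 1 array and above every control. The difference was -1.28 ± 0.16 (SE; adjusted p = 9.28e-07). Junb went from 2.55 to 3.34 to 1.80 to 2.14, and Ier3, Nr4a1, Fosl1 and Egr3 fell by 1.06, 0.98, 0.89 and 0.63. Junb lost the call when any of 5 arrays was left out, Nr4a1 both in the deposited values and after quantile normalisation, and Egr3 after quantile normalisation. Atf3, which neurons and glia induce on injury, stayed at 1.99 to 3.44 at day 1 and 3.04 to 3.39 at day 7 and did not pass at 0.59 ± 0.23. Jun differed by -0.46 ± 0.25 and Egr1 by -0.66 ± 0.30, neither of which passed.

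Heat shock and metal stress genes fell in 7 of 15 measured and rose in 0, a share of 46.7% against 27.6% of all genes. Mt1, a metallothionein that binds zinc and copper, read 1.23, 1.98, 2.39 and 1.98 at day 1 and 0.25, -0.14, -0.14 and 0.0087 at day 7, close to the control range. Its difference was -1.90 ± 0.24 (SE; adjusted p = 5.82e-07), and Mt2 and Mt3 fell by 1.16 and 0.70. The small heat shock gene Hspb1 went from 3.01 to 3.55 to 1.51 to 2.24, with control arrays scattered from -0.97 to 1.41. Hspa1a, Hspa1b and Gclm fell by 0.74, 0.55 and 0.77. Gclm lost the call when any of 6 arrays was left out, Hspa1b when any of 3 was and Hspb1 without day 7 replicate 1. Mt3 and Hspa1b no longer passed after quantile normalisation.

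Among hypoxia and glycolysis genes 4 fell and 1 rose of 15 measured, a share of 33.3% against 27.6% of all genes. The sign of the list's median, -0.0077, turned with the scaling. Adm, the vasodilator adrenomedullin, read 2.37, 3.98, 3.55 and 2.57 at day 1 and 0.75, 1.49, 1.15 and 1.76 at day 7, a difference of -1.83 ± 0.40 (SE; adjusted p = 0.000937). The glucose carrier gene Slc2a1 went from 0.37 to 0.91 to -0.996 to -0.49 and Vegfa, the vascular growth factor, from -0.084 to 0.65 to -1.13 to -0.73, so both ended below the control mean. Bnip3 fell by 1.11, and Pdk1 rose by 0.50, a call lost when any of 4 arrays was left out. Hmox1, which degrades haem, was raised at both days (1.78 to 2.63 and 2.57 to 3.92) and did not pass (adjusted p = 0.0564). Pgk1 and Ldha, glycolytic enzymes, differed by -0.033 and 0.13 and did not pass.

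Cell cycle genes rose almost throughout. Of 19 measured, 18 rose and 0 fell, with a median of 1.82, or 1.01 after quantile normalisation. Mki67, the proliferation antigen, read 0.057, 0.15, 0.053 and -0.26 in the controls, 0.63, -0.25, -0.21 and -0.24 at day 1 and 6.38, 6.25, 5.68 and 5.78 at day 7. Replicate 1 alone stood above the controls among the day 1 arrays, while all 4 day 7 arrays stood far above. The difference was 6.04 ± 0.36 (SE; adjusted p = 3.6e-14), or 65.9-fold, and day 3 was already at 4.33 ± 1.24 (SD, n = 4). Cdk1, the kinase that drives entry into mitosis, read 1.09, -0.053, -0.13 and 0.61 and 5.76, 5.72, 5.29 and 5.25, with day 1 replicates 1 and 4 above the other day 1 arrays. Its difference was 5.13 ± 0.35 (SE; adjusted p = 8.69e-13). Pbk, a mitotic kinase, was at 4.84 ± 0.88 (SD, n = 4) at day 3 and 5.16 ± 0.33 (SD, n = 4) at day 7 and rose by 5.16 from day 1.

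Other genes of mitosis rose as well. Plk1 rose by 3.46, Top2a by 2.93, Cenpe by 2.52, Ccna2 by 2.41, Ccnb2 by 2.36, Bub1 by 2.34, Birc5 by 1.82 and Aurkb by 1.54. The replication genes Pcna, Rrm2, Mcm5 and Mcm2 rose by 1.41, 1.20, 1.04 and 0.87. Aurka rose by 0.52, a call lost when any of 3 arrays was left out. Pcna, Mcm5, Mcm2 and Aurka no longer passed after quantile normalisation. Tk1, a thymidine kinase, differed by -0.22 ± 0.10 and did not pass.

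Among the promoter windows of this list 2 motifs recur, so 4 of the promoters are shown. The CCAAT box, the site of the factor NF-Y, was searched as CCAAT on both strands (ATTGG on the strand shown), and the cell cycle homology element as TTTGAA on both strands (TTCAAA). The first was found for 14 of 16 genes of the list and for 42.2% of all 15691 genes with a window, and the other for 9 of 16 and for 17.8%. The stretches lie at chr7:135716457-135716582, chr10:69352913-69353062, chr11:99024192-99024341 and chr9:70421556-70421705, all on the minus strand, with both motifs in capitals. The Ccnb2 stretch holds CCAAT boxes only, but Ccnb2 is among the 9 genes with TTTGAA, which lies outside the stretch shown.
Mki67: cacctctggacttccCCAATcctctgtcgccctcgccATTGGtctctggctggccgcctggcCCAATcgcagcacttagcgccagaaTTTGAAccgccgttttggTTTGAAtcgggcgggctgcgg
Cdk1: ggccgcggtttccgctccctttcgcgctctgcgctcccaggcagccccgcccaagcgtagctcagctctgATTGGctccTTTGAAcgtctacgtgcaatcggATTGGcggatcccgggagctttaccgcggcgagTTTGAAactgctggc
Top2a: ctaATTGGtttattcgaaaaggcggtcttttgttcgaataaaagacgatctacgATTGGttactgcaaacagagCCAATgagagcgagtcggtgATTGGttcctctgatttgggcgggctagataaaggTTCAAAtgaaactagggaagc
Ccnb2: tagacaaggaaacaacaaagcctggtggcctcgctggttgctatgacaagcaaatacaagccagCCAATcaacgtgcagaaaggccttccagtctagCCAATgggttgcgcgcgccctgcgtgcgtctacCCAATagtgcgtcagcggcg

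Among reactive astrocyte genes, 2 rose and 5 fell of 16 measured, with a median of -0.33. The share called was 43.8%, against 27.6% of all genes. After quantile normalisation 0 were called higher and 7 lower, with a median of -0.89. Gfap, the intermediate filament of reactive astrocytes, read 1.27, 0.83, 1.16 and 0.92 at day 1 and 2.15, 1.91, 1.64 and 1.93 at day 7. All 8 injured arrays lay above the controls (-0.33 to 0.41), and the difference was 0.86 ± 0.26 (SE; adjusted p = 0.0274). The call for Gfap was lost without day 1 replicate 2 or 4 or day 7 replicate 1 or 2, and its sign turned after quantile normalisation. Vim, the filament that reactive glia, endothelium and fibroblasts share, went from 1.03 to 1.72 to 2.57 to 3.000 and rose by 1.29, though not after quantile normalisation. Other members of the list fell. Timp1, a protease inhibitor, read 4.03, 4.83, 4.84 and 1.79 at day 1, with replicate 4 far below the others, and 1.99, 2.74, 2.20 and 2.86 at day 7. The groups overlap through that array, and the difference was -1.43 ± 0.41 (SE; adjusted p = 0.0121), which was lost without day 1 replicate 2 or 3. Serpina3n, Nes and Aspg fell by 0.69, 0.96 and 0.73, and Serpina3n was still far above control at 3.76 to 4.20. Serpina3n lost the call when any of 5 arrays was left out. Cd44, Cp and Emp1 differed by 0.18, 0.61 and 0.72 and did not pass.

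Homeostatic astrocyte genes rose in 3 and fell in 2 of 12 measured, and the sign of their median, -0.064, turned when array medians were set to 0. The share called was 41.7%, against 27.6% of all genes. Aqp4, the water channel of astrocyte endfeet, read 0.31, -0.68, -0.31 and -0.37 at day 1 and 1.92, 1.82, 1.58 and 1.47 at day 7, a difference of 1.96 ± 0.36 (SE; adjusted p = 0.000128). The gap junction gene Gja1 went from -0.89 to -0.69 at day 1, below control, to 0.18 to 0.33. Of the glutamate carriers, Slc1a3 rose by 0.74 and Slc1a2 fell by 0.61. Sox9, the transcription factor of astrocytes, fell by 0.52, a call lost when any of 4 arrays was left out. Aqp4, Gja1 and Slc1a2 no longer passed after quantile normalisation. Aldh1l1 and the potassium channel gene Kcnj10 differed by -0.49 and -0.012 and did not pass.

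Oligodendrocyte precursor genes rose in 5 of 10 measured and fell in 0. Gpr17, a receptor of precursors that are about to differentiate, was depressed at day 1, at -1.66, -1.95, -1.92 and -0.98, and raised at day 7, at 1.48, 1.38, 1.38 and 1.30. The 4 day 7 arrays lie within a narrow band above every control, and the difference was 3.01 ± 0.37 (SE; adjusted p = 1.58e-07). Enpp6, a choline phosphodiesterase of newly formed oligodendrocytes, read -1.33, -2.06, -1.61 and -0.95 at day 1 and 0.0094, 0.22, 0.48 and 0.018 at day 7, close to control level. It rose by 1.67 (adjusted p = 5.4e-06). Cspg4, the NG2 proteoglycan, rose by 2.43, from -0.57 to -0.16 to 1.76 to 2.42, but pericytes carry it too. Vcan, a matrix proteoglycan, rose by 1.96 and Neu4 by 0.65. Neu4 lost the call when any of 5 arrays was left out, and it and Enpp6 lost it both in the deposited values and after quantile normalisation. The lineage factors Olig2, Sox10 and Olig1 differed by -0.15, 0.18 and 0.62 and did not pass.

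Genes of mature oligodendrocytes and myelin showed few calls. Of 15 measured, 1 rose and 3 fell, a share of 26.7%, near the 27.6% of all genes. The list's median of -0.42 depends on the offset, since it becomes 0.30 when each offset is set to the upper end of its range. Mbp, the myelin basic protein, read -0.50, -0.45, -0.099 and -0.062 at day 1 and -0.44, -0.51, -0.31 and -0.37 at day 7. The groups overlap and the difference was -0.13 ± 0.11. Cnp, a myelin phosphodiesterase, was below control at day 1 (-0.86, -0.99, -0.75 and -0.44), at control level at day 7 (-0.047, 0.11, 0.25 and -0.063), and rose by 0.82 (adjusted p = 0.000359), though not after quantile normalisation. Mal, a myelin proteolipid, Myrf, the transcription factor of myelin genes, and Trf, or transferrin, fell by 0.64, 0.66 and 0.80, of which Mal no longer passed after quantile normalisation. Myrf and Trf fell from raised values, with Trf at 0.59 to 1.31 at day 1 and 0.091 to 0.43 at day 7. Mog, Aspa and Klk6 could not be called within offset ranges whose half-widths are 0.73, 0.73 and 1.20. Aspa, the aspartoacylase of oligodendrocytes, read -2.37 to -1.72 at day 1 and -1.11 to -0.66 at day 7.

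Cholesterol synthesis fell in full. All 12 measured genes of the list were lower at day 7, with a median of -1.36 and differences from -2.51 to -0.64. Insig1, which holds the transcription factor SREBP in the endoplasmic reticulum when sterol is plentiful and is itself a target of SREBP, read 0.050, 0.22, -0.21 and -0.060 in the controls, -0.29, -0.30, -0.23 and 0.078 at day 1 and -2.71, -2.94, -2.56 and -2.58 at day 7. Day 1 lay near control level and all 4 day 7 arrays lay far below it, with a difference of -2.51 ± 0.20 (SE; adjusted p = 4.41e-11). Srebf2, which encodes the SREBP of this pathway, read 0.26, 0.22, 0.049 and 0.28 and -1.35, -1.32, -1.02 and -1.004 and fell by 1.38 (adjusted p = 1.49e-10).

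The enzymes fell along the whole pathway. At its start Hmgcs1 went from -0.62 to 0.23 to -2.13 to -1.42 and fell by 1.48. Mvk, Idi1 and Fdps, which carry mevalonate to farnesyl diphosphate, fell by 0.74, 1.34 and 1.15. Fdft1, the squalene synthase, read 0.48, 0.29, 0.29 and 0.28 at day 1, above control in all 4 arrays, and -1.82, -1.81, -1.38 and -1.52 at day 7. It fell by 1.97 (adjusted p = 1.68e-12). Sqle and Lss, which close squalene into the first sterol, fell by 1.504 and 0.91, and the late enzymes Cyp51, Sc5d and Dhcr7 by 0.94, 1.97 and 0.64. Sc5d, the most precisely measured, had values of -0.030, -0.20, 0.059 and -0.023 at day 1 and -1.91, -2.19, -2.05 and -1.94 at day 7, and the list's lowest adjusted p, 2.44e-15. Mvk and Dhcr7 no longer passed after quantile normalisation, Mvk not in the deposited values and Cyp51 not with the offsets at their upper end. Day 3 lay in between for Insig1, at -0.89 ± 0.65 (SD, n = 4), and for Sc5d, at -0.57 ± 0.20 (SD, n = 4).

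Promoters of the list are shown because SREBP is known to act together with NF-Y. CCAAT was found for 9 of 9 genes of the list that have a window, against 42.2% of all genes with one, and TTTGAA for 0 of 9. The sterol response element, searched as TCACNCCAC on both strands, was found for 1 of 9, Hmgcs1, and for 1.43% of all genes with a window. The stretches lie at chr5:28071181-28071215 (plus strand), chr9:42264305-42264339 (minus), chr13:8885546-8885605 (plus) and chr13:119690176-119690325 (plus), with both motifs in capitals.
Insig1: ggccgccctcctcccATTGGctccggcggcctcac
Sc5d: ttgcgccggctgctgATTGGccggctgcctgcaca
Idi1: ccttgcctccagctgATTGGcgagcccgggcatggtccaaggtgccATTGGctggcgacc
Hmgcs1: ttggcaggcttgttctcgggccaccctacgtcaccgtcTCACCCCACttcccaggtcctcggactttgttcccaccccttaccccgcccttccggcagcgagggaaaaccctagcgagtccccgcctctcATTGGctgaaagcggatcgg

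Neuronal genes fell in 14 of 18 measured and rose in 0, with a median of -1.22. The median was -0.73 in the deposited values and -0.81 after quantile normalisation. Syt1, the calcium sensor of synaptic vesicles, read -0.49, -0.63, -0.89 and -0.28 at day 1 and -2.45, -3.05, -2.08 and -1.86 at day 7. All 4 day 1 arrays were already below the controls, day 7 replicate 2 was the lowest, and the difference was -1.79 ± 0.16 (SE; adjusted p = 1.44e-09). Snap25, a protein of vesicle fusion, stood at control level at day 1, at -0.13, -0.028, -0.042 and 0.0024, and at -1.26, -2.33, -1.10 and -1.11 at day 7. It fell by 1.40, and replicate 2 was again the lowest. Scn1a, a sodium channel of fast-spiking neurons, fell by 1.95, the potassium channel gene Kcna1 by 1.74, and Rbfox3, the NeuN antigen, by 1.20, from -1.27 to -0.62 to -2.53 to -1.68. After quantile normalisation Rbfox3, Map2, Slc17a6 and Stmn2 no longer passed.

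Genes of both inhibitory and excitatory transmission were among those that fell. Gad1, which makes GABA, read -0.58, -0.96, -0.49 and 0.017 and -1.63, -2.77, -1.87 and -2.34 and fell by 1.65, Slc32a1, the vesicular GABA carrier, by 1.04, and Slc17a6, the vesicular glutamate carrier of the cord, by 0.99. Slc6a5 and Glra1, of glycine transmission, differed by -1.42 and -1.25 but could not be called within offset ranges of half-width 1.05 and 1.59. The neurofilament genes Nefm, Nefh and Nefl fell by 1.27, 0.87 and 0.70. Tubb3 and Gad2 differed by -0.57 and -0.53 and did not pass. Without day 7 replicate 2, the array lowest for Syt1 and Snap25, 4640 genes changed in all.

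Of 9 measured motor neuron genes, 1 fell and 0 rose, a share of 11.1% against 27.6% of all genes, with a median of -0.43. After quantile normalisation 4 were called lower and the median was -0.91. Chat, which makes acetylcholine, read -0.15, -0.24, 0.20 and 0.43 at day 1 and -0.33, -0.31, -0.21 and -0.26 at day 7, and its difference of -0.33 ± 0.15 did not pass. Slc18a3, Slc5a7 and Mnx1 differed by -0.51, -0.42 and -0.25 and did not pass. Esrrg, a nuclear receptor of small motor neurons, fell by 1.32, from -1.17 to -0.45 to -2.71 to -2.004.

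The axon injury list gave 1 rise and 2 falls among 13 measured, a share of 23.1% against 27.6% of all genes. Its median, 0.025, turned sign after quantile normalisation. Ecel1, a peptidase that damaged neurons induce, read 0.90, 0.75, 0.99 and 1.06 at day 1 and 2.75, 2.61, 2.27 and 2.74 at day 7, a difference of 1.67 ± 0.38 (SE; adjusted p = 0.00159). Ecel1 no longer passed after quantile normalisation. Vgf, a neuropeptide precursor, fell by 0.85 and Smad1 by 0.64. Smad1 lost the call when any of 7 arrays was left out and Vgf when either of 2 was, and neither passed after quantile normalisation. Gap43, Sprr1a and Sox11, genes of axon regrowth, differed by 0.025, -0.079 and -0.15 and did not pass. Genes listed for Schwann cells, as a sign of peripheral root in the sample, fell in 2 of 10 measured and rose in 0. That is a share of 20.0%, against 27.6% of all genes. Ncmap fell by 0.66 and Shh by 0.64, and Ncmap no longer passed with array medians set to 0. The list is not limited to genes found only in Schwann cells, so these falls are not read as less root. The 1 planned Schwann cell marker that was measured differed by -0.042 and did not pass.

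Scar genes rose strongly. Of 17 measured genes of fibroblasts and extracellular matrix, 14 rose and 0 fell, with a median of 1.68, or 0.33 after quantile normalisation. Postn, a matrix protein of healing wounds, read 0.27, 0.43, -0.082 and -0.75 at day 1 and 5.74, 5.95, 5.72 and 5.89 at day 7. Day 1 lay close to the range of the controls (-0.60 to 0.83), the 4 day 7 arrays lay within a narrow band, and the difference was 5.86 ± 0.39 (SE; adjusted p = 3.04e-13). Col1a1, of the main fibrillar collagen, read 0.40, 0.49, 0.21 and -0.43 at day 1 and 3.97, 4.41, 4.13 and 4.59 at day 7, a difference of 4.11 ± 0.29 (SE; adjusted p = 2.06e-12). At day 3 it was still at 0.53 ± 0.55 (SD, n = 4).

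The other fibrillar collagens followed. Col3a1 rose by 4.02, Col1a2 by 3.74, Col5a1 by 3.67 and Col5a2 by 1.002. Lum, a proteoglycan that spaces collagen fibrils, rose by 4.21, with controls scattered from -1.83 to 2.42. The crosslinking enzyme genes Loxl1 and Lox rose by 1.79 and 1.37, and Thbs1 and Fn1 by 1.57 and 1.68. Tnc, an early matrix glycoprotein, was high at both days, at 3.88, 4.91, 4.78 and 2.85 and 4.75, 4.91, 4.63 and 4.79, and its difference of 0.66 ± 0.29 did not pass. Dcn and Sparc did not pass either, at 0.41 ± 0.65 and 0.29 ± 0.15. After quantile normalisation Col5a2, Col6a1, Col6a2, Fn1, Loxl1, Lox, Thbs1 and Pdgfrb no longer passed. Control replicate 2 stood highest of the 4 controls for Col1a1, Col3a1, Lum and Dcn, which shifts the reference of these values and not the difference between the days.

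Matrix proteases rose in 7 and fell in 2 of 17 measured, and the list's median of 0.41 turned sign after quantile normalisation. The share called was 52.9%, against 27.6% of all genes. The gelatinase gene Mmp2 went from -0.39 to 0.60 to 2.66 to 3.64, and Mmp14, which activates it, from -0.20 to 0.80 to 3.07 to 3.37, rises of 3.20 and 2.86. Plau, the urokinase, rose by 3.38, Timp2 by 2.31 and Mmp13 by 0.92, the last not after quantile normalisation. Timp1 and Adamts1 fell by 1.43 and 1.54, the latter from 2.77 to 3.79 to 1.16 to 2.53. Mmp9, Mmp3 and Plaur, the urokinase receptor, differed by 0.41, 0.039 and -0.43 and did not pass.

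Among vessel genes the pericyte and smooth muscle list rose in 7 of 10 and fell in 0, with a median of 1.14, or 0.40 after quantile normalisation. Acta2, the smooth muscle actin of vessel walls and myofibroblasts, read 0.64, 0.055, -0.042 and -0.45 at day 1 and 3.50, 3.63, 3.36 and 3.99 at day 7, a difference of 3.57 ± 0.30 (SE; adjusted p = 9.03e-10). Pdgfrb, a receptor of pericytes and fibroblasts, rose by 1.95, Tagln by 1.61, Cnn1 by 1.17 and Rgs5 by 1.11. Of these 5, Acta2 alone passed after quantile normalisation. The more selective genes Kcnj8, Abcc9 and Myh11 differed by -0.20, -0.17 and -0.22 and did not pass.

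Endothelial genes rose in 4 and fell in 3 of 14 measured, and their median of 0.095 turned sign after quantile normalisation. Cldn5, the tight junction protein of brain vessels, read 0.24, 0.19, 0.88 and 0.48 at day 1 and 2.06, 1.95, 1.73 and 1.87 at day 7, a difference of 1.45 ± 0.18 (SE; adjusted p = 4.9e-07). Kdr, the main VEGF receptor, went from below control (-0.81 to -0.56) to around or above it (0.24 to 0.90) and rose by 1.18, while Flt1, the other VEGF receptor, fell by 0.71. Cdh5 and Tek rose by 1.01 and 0.88. Cldn5 and Cdh5 no longer passed after quantile normalisation. Mfsd2a and Slc2a1, carriers of the blood-brain barrier for lipid and glucose, fell by 1.04 and 1.35. Pecam1 and Plvap differed by -0.40 and -0.12 and did not pass. Ependymal genes were called in 1 of 9, a share of 11.1% against 27.6% of all genes (Rsph1, higher by 0.51, a call lost when any of 6 arrays was left out). Of 2 measured red blood cell genes, Alas2 rose by 0.79 and Slc4a1 did not pass at -0.42 ± 0.14.

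**Figure D3:**
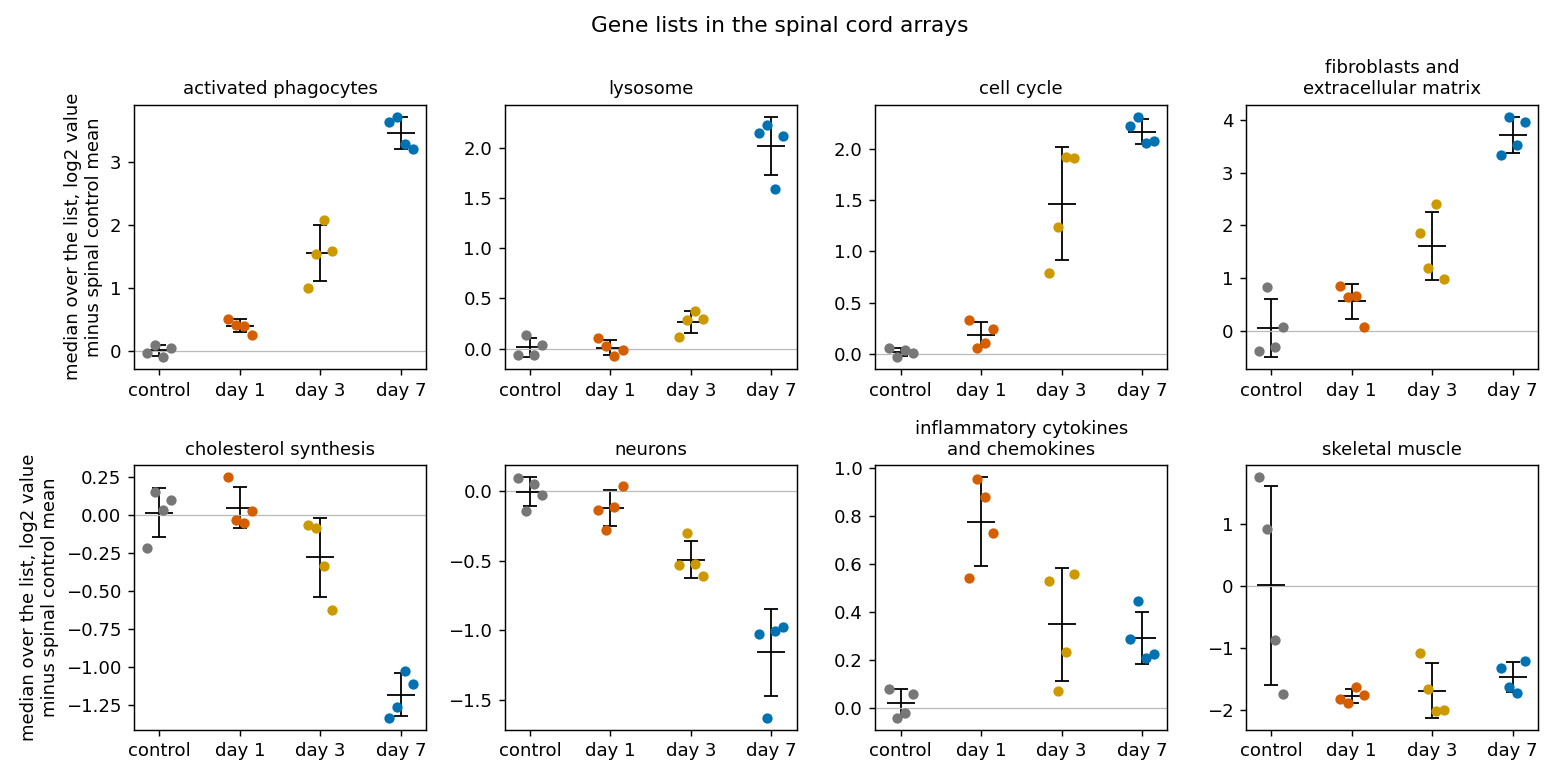
For 8 gene lists, each point is 1 spinal array at the median over the list's measured genes (log2 value minus the mean of the 4 spinal controls), with the mean and 1 SD of the 4 arrays of a group. Phagocyte, lysosome, cell cycle and matrix lists are highest at day 7, cholesterol synthesis and neurons are lowest there, cytokines peak at day 1, and skeletal muscle separates 2 control arrays from all others.

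The same interval was then set against the cerebrum, where photothrombosis was sampled at the same days. The offset of the day 7 arrays is the same in both tissues and drops out of this difference, so it was tested against 0. The names that begin with P belong to the cord alone, so a batch behind them would fall wholly on this difference and cannot be told apart from it. The change from day 1 to day 7 differed between the tissues in 5350 genes (27.4%), of which 2621 (13.4%) moved more upward in the cord and 2729 (14.0%) more downward. In the cerebrum alone, tested against the bound, 561 genes (2.88%) changed from day 1 to day 7, of which 303 (1.55%) were higher and 258 (1.32%) lower. Of the 30 genes named above for size, 29 differed between the tissues, a count that is largely set by choosing them for their change in the cord. Tgm1 was the exception. It fell by 2.19 in the cord and by 1.86 in the cerebrum (adjusted p = 0.0204), and the difference between them was -0.34 ± 0.63 (SE; adjusted p = 0.727).

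Nearly all cell cycle genes differed between the tissues. Of 19 measured, 18 moved more upward in the cord and 0 more downward. Mki67 rose by 6.04 in the cord and differed by -0.62 in the cerebrum, a difference between tissues of 6.67 ± 0.50 (SE; adjusted p = 9.69e-11). For Pbk that difference was 6.01 ± 0.54 (SE; adjusted p = 1.35e-09) and for Cdk1 5.27 ± 0.50 (SE; adjusted p = 3.85e-09). In the cerebrum the day 7 to day 1 differences of these genes were -0.84 and -0.15.

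Phagocyte genes moved more upward in the cord. Of 16 activated phagocyte genes, 12 moved more upward in the cord and 0 more downward, and the list's median difference was 3.40 in the cord and 1.23 in the cerebrum. Gpnmb rose by 4.31 in the cerebrum (adjusted p = 4.51e-05), and the difference between tissues was 4.52 ± 0.81 (SE; adjusted p = 9.62e-05). For Mpeg1 the cerebral value was 0.62 and the difference between tissues 5.62 ± 0.40 (SE; adjusted p = 6.27e-11). Cd36 and Mmp12 were higher in the cord's change by 4.70 and 4.996. P2ry12 rose by 2.16 in the cord and differed by -0.16 in the cerebrum, with 2.32 ± 0.35 (SE; adjusted p = 9.25e-06) between them. Lysosomal genes moved more upward in the cord in 12 of 17 and matrix genes in 14 of 17. Ngp, of neutrophils, had a cerebral value of -0.24 and a difference between tissues of 5.25 ± 0.50 (SE; adjusted p = 3.58e-09).

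Cholesterol synthesis and neuronal genes moved more downward in the cord. The counts were 11 of 12 for cholesterol synthesis, all but Mvk, and 15 of 18 for neurons, with 0 more upward in either. Insig1 had a cerebral value of -0.33 and a difference between tissues of -2.18 ± 0.28 (SE; adjusted p = 8.66e-07), and Msmo1 values of -0.089 and -2.23 ± 0.20 (SE; adjusted p = 1.45e-09). Syt1 had a cerebral value of -0.32 and a difference of -1.47 ± 0.23 (SE; adjusted p = 1.62e-05). Among the 8 largest differences in this direction were Nrn1 (-2.46), Tac2, which encodes neurokinin B (-2.40), Mt1 (-2.37) and Tlcd3b (-2.32). The cytokine genes Il11 and Il1b, at -2.43 and -2.34, and Lpo, at -2.27, also moved more downward in the cord. Ifit3 fell in the cord and had a cerebral value of 1.05, with -1.82 ± 0.29 (SE; adjusted p = 1.59e-05) between them.

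Oligodendrocyte precursor genes moved more upward in the cord in 5 of 10, against 13.4% of all genes. Gpr17 differed by 2.72 ± 0.52 (SE; adjusted p = 0.000213) and Enpp6 by 1.08 ± 0.34 (SE; adjusted p = 0.017). Of 15 myelin genes, 1 moved more upward in the cord, Cnp at 1.29, and 3 more downward, Klk6, Opalin and Ermn at -1.06, -1.03 and -0.73, a share of 26.7% that is near the 27.4% of all genes. Gfap rose by 0.86 in the cord and had a cerebral value of -0.34, a difference of 1.20 ± 0.37 (SE; adjusted p = 0.0142). Aqp4 differed between tissues by 1.93 ± 0.51 (SE; adjusted p = 0.00507).

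**Figure D4:**
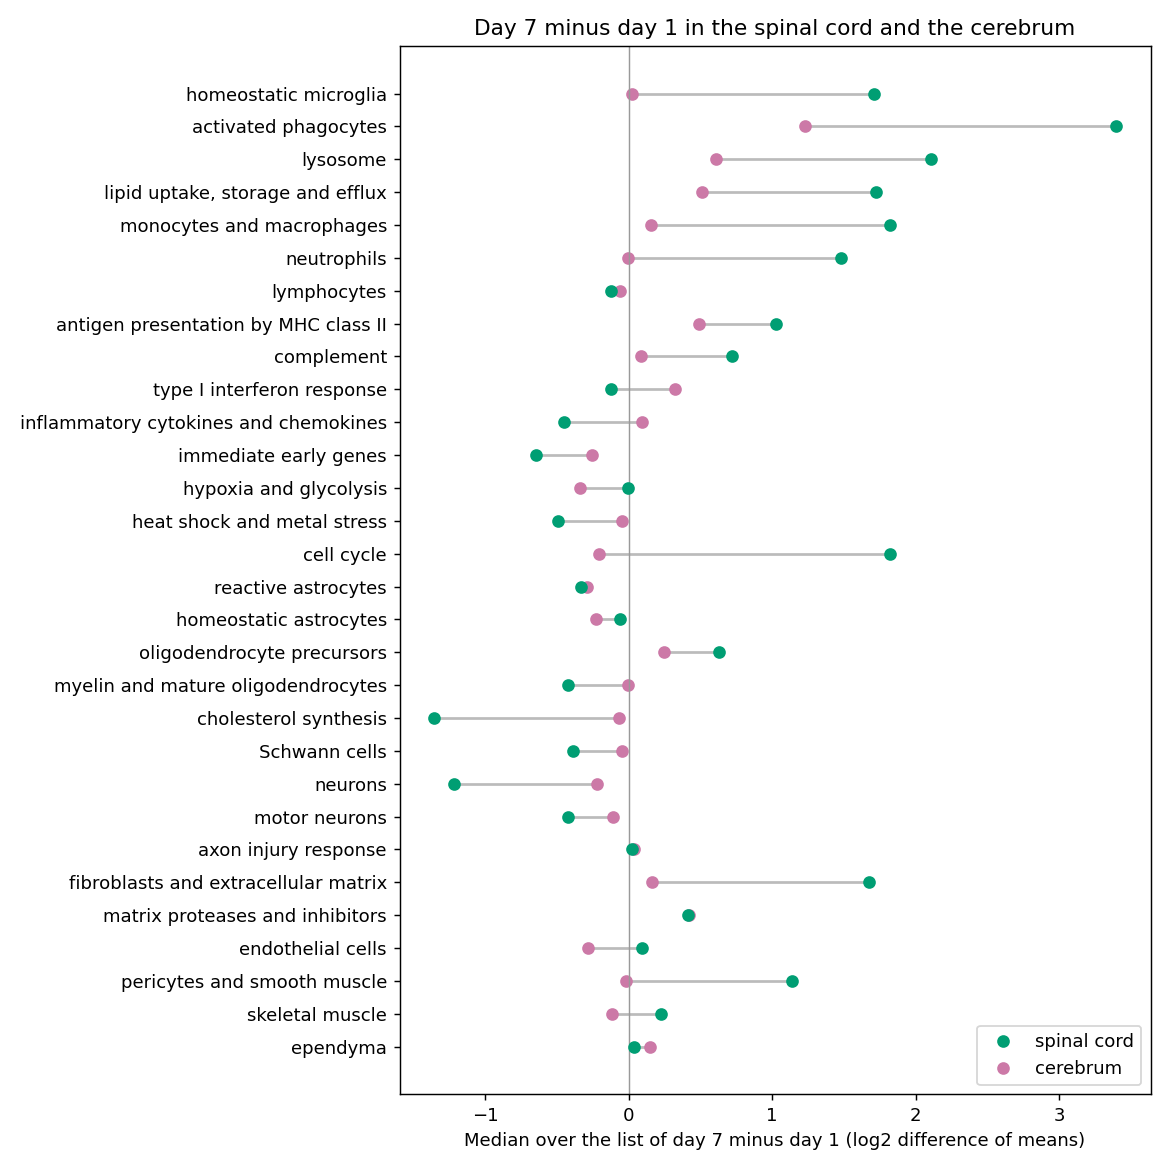
For each gene list, the median over its measured genes of the change from day 1 to day 7 (log2 difference of means, 4 arrays a group) is shown for the spinal cord in green and the cerebrum in pink, joined by a line. The points of activated phagocytes lie at 3.40 and 1.23, those of cell cycle at 1.82 and -0.21, and those of cholesterol synthesis at -1.36 and -0.069.

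Set beside the spinal controls, the genes named here took different courses. These comparisons share the day 1 or the day 7 arrays with the one above, so they are given as values only. At day 1, 31.9% of genes differed from control by a test against 0. At day 7, 31.8% did so by the stricter test against the bound, so the shares cannot be compared. With the offset taken as exact, 9754 genes passed at day 7 against 6200 with the bound. Trem2 and Postn stood near or below control at day 1 and above it at day 7. Trem2 differed from control by -0.57 (adjusted p = 0.187) at day 1 and by 5.08 (adjusted p = 1.08e-13) at day 7, and Postn by -0.033 (adjusted p = 0.961) and 5.83 (adjusted p = 1.67e-13). Il6 and Mt1 stood high at day 1 and lower at day 7, Il6 with 2.66 (adjusted p = 3.22e-06) and 0.35 (adjusted p = 0.725), and Mt1 with 1.90 (adjusted p = 6.4e-07) and -0.0068 (adjusted p = 1). P2ry12 and Gpr17 were low at day 1 and at or above control at day 7, P2ry12 with -2.23 (adjusted p = 7.41e-08) and -0.074 (adjusted p = 0.977), and Gpr17 with -1.63 (adjusted p = 0.00107) and 1.38 (adjusted p = 0.00586). Insig1 and Syt1 were near or slightly below control at day 1 and low at day 7, Insig1 with -0.19 (adjusted p = 0.506) and -2.70 (adjusted p = 3.96e-12), and Syt1 with -0.57 (adjusted p = 0.00827) and -2.36 (adjusted p = 1.27e-12).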

How the data were processed

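Gene expression was measured on 32 arrays of snap-frozen tissue, with total RNA extracted with TRIzol and 10 ng labelled with biotin, per the labels' protocols. The deposited file holds log2 values from the authors, while how they were summarised, with which software and build, is not given in the sources used here. Number of arrays limits the precision, and no counts or depth apply.

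Centring per probe was detected in 3 separate parts of the table. The median over controls plus day 1 was 0 for 100% of probes, and day 3 and day 7 each have a centre of their own. Where it could be tested (5127 probes), day 7 matched a centring with the 8 controls in 86.4%, against 70.1% with day 1 and 69.7% with day 3 as partners. The day 7 offset was rebuilt per probe from that match. It was a single value in 80.0% of probes and otherwise a range, whose midpoint was used. The median absolute offset was 0.092 and the largest 3.39. For a gene whose 8 day 7 values all lie beyond the controls, 1 control and 1 day 7 value set the offset. The bound per gene is the range's half-width plus an allowance of 0.178, which is 2 times the 95th percentile of the shortfall among probes that break the match. This factor and percentile were chosen after the shortfalls were seen.

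Of 22206 probes, 19572 carry 1 gene symbol in the platform annotation, which gives 19505 genes (55 with several probes, averaged), and 2634 carry none. One limma fit held all 32 arrays as 8 group means with 24 residual degrees of freedom. Day 7 minus day 1 and day 7 minus control were tested against the bound, and the spinal-minus-cerebral difference of changes and day 1 minus control against 0, with Benjamini-Hochberg over all genes and a threshold of 0.05. The 31 lists hold 400 measured genes. Members and lists were chosen with earlier results of these data known. Named genes are the 15 largest rises and falls among called genes whose day 7 arrays all lie beyond all day 1 arrays over the whole offset range, the 8 largest tissue differences each way, and members of the lists; predicted genes and olfactory receptors were passed over. A fold is 2 to the power of a log2 difference. Grouping used the labels, with replicates numbered by deposition order. The alternatives tried concern the offset, its bound, the arrays fitted, the scaling, probes and variance model, and each array left out. Promoters and microRNAs came from RefSeq tables on GRCm38.p6.

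Both tests were run on simulated data with 70 genes changed at each size among 19505 and no change from day 1 to day 7 in the others. The noise was normal and independent between arrays and genes, and the allowance was computed anew from the simulated arrays. For centring day 7, the simulated controls carried a small added noise of preset size, from which that allowance follows. The simulated bound can therefore differ from the bound used for the real arrays. The figures hold for these settings, and their fit to the real arrays was not tested. For day 7 minus day 1 the test called 41.4%, 92.9% and 100% at log2 changes of 0.5, 1 and 2, and 5 of 169 calls were false. For the tissue difference the test called 20.0%, 84.3% and 97.1%, and 9 of 150 were false. Tools were R 4.3.3, limma 3.58.1, matrixStats 1.5.0, Python 3.11.15, pandas 2.3.3, numpy 2.4.6 and matplotlib 3.10.9.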

Additional observations from a re-analysis of the deposited data

Results flagged for a closer look

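Across the 34 genes named by size, the arrays of each day were searched for 1 array far from the other 3, by its gap over the group's range. Of 68 groups, 5 held such an array, where chance gives about 1 in 20. Mmp12 at day 1 replicate 4 was 1.32 against 2.59 to 2.80 in the others. Mki67 at day 1 replicate 1 was 0.63 against -0.25 to -0.21. Lpo at day 7 replicate 2 was -0.070 against 0.21 to 0.26. Gabra5 at day 7 replicate 2 was -3.48 against -2.31 to -2.13. Tac2 at day 1 replicate 4 was -0.50 against -1.59 to -1.48.

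The change from day 1 to day 7 differed between spinal cord and cerebrum in 33 of these 34 genes by limma's test of the difference, with Tgm1 as the exception. The genes were chosen for a large change in the cord or a large tissue difference, so this count is largely set by the choice. The log2 difference, cord minus cerebrum, was positive for Gpnmb (4.52), Cd36 (4.70), Mmp12 (4.996), Ms4a7 (4.19), Mir675 (2.76), Mpeg1 (5.62), Mki67 (6.67), Postn (3.47), Lyz2 (2.98), Trem2 (4.25), Cd300c2 (4.29), Tmem106a (3.49), Pbk (6.01), Cdk1 (5.27), Cd48 (3.65) and Ngp (5.25). It was negative for Lpo (-2.27), Il11 (-2.43), Insig1 (-2.18), Msmo1 (-2.23), Il6 (-2.09), Hsd11b1 (-1.50), Elmod1 (-1.71), Il1b (-2.34), Prkar1b (-1.46), Gabra5 (-1.86), Nrn1 (-2.46), Rit2 (-1.94), Trim9 (-1.02), Lypd6b (-2.06), Tlcd3b (-2.32), Mt1 (-2.37) and Tac2 (-2.40).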

How the results depend on the processing

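The count of 5384 genes changed between spinal day 1 and day 7 was 9661 with the offset taken as exact, 9321 with its half-width alone as the bound and 1980 after quantile normalisation, and stayed within 1.5 times under the other alternatives. With the bound lowered in these ways 59.5% of the calls were lower at day 7. After quantile normalisation 61.7% were higher and 38.3% lower. The tissue difference fell from 5350 to 2986 genes after quantile normalisation, and with array medians set to 0 62.4% of its calls were higher and 37.6% lower, against 49.0% and 51.0%. Day 7 minus control rose from 6200 to 9754 genes with the offset taken as exact. With 1 array left out at a time, the counts ran from 4618 to 5659 for day 7 minus day 1, 4484 to 5128 for the tissue difference, 5217 to 5828 for day 1 minus control, and 198 to 221 for list members, of which 210 were called. Leaving out day 3 replicate 1 was chosen after seeing the data. Of 800 values of the 34 genes under the alternatives, 799 kept direction and side of the threshold, 0 reversed, and Nrn1 lost its call after quantile normalisation (-1.16). The cause of that loss was not tested. These genes were chosen for the size of changes that had passed, which largely sets the count of 799. Of the 210 list calls, 79 were lost under at least 1 alternative. Beside those named above, leaving out 1 array ended the calls of Alas2, Cdh5, Col6a1, Cxcr2, Elane, Fn1, Ncmap, Slc17a6, Stmn2 and Vtn. No paired analysis was possible because replicates are numbered by deposition order, which pairs no samples. A set of 144 genes has an offset half-width over 0.5, and for these only differences larger than it could pass. The number of arrays and not a depth limits the precision.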

Other observations

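Of the 2634 probes with no gene symbol, 615 (23.3%) changed between spinal day 1 and day 7, 243 higher and 372 lower, in the same test.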
